A study of Homo sapiens with 6 samples.

Results

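Total RNA from OVCAR5 and OVCAR5R cells was sequenced, and S100A4 and the S100 genes listed beside it were examined. The family was chosen by gene name around S100A4, and S100A4 itself was selected on its low values in OVCAR5R in these same libraries, so its difference between the cell lines is given as a description with no test. Of the 10 S100 genes named, 8 were measured among the 12308 genes of the table (S100A4, S100A2, S100A6, S100A10, S100A11, S100A13, S100A16, and S100P), and S100A3 and S100A14 were not analysed here. OVCAR5 is an established human ovarian cancer cell line, described in the study as BRCA wild-type and p53 null, and 3 cultures of it served as the parental group. OVCAR5R is its derivative resistant to prexasertib (Prex), an inhibitor of the checkpoint kinase CHK1, also as 3 cultures. OVCAR5R had been grown in rising concentrations of Prex up to 3 µM, was kept at 2 µM, and was taken off the drug for at least 4 days before use. Both groups derive from OVCAR5 by their labels, and OVCAR5R is a single derived line. The 3 replicates per cell line are separate cultures of that line, so the spread between them does not cover variation between independently derived resistant lines.

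S100 proteins are small calcium-binding proteins built from a pair of EF-hand motifs, and most of them form dimers that expose a binding surface when calcium rises. They have no enzymatic activity and act by binding partners such as annexins, non-muscle myosin, and p53 inside the cell, and receptors such as RAGE when they are released. S100A4 binds non-muscle myosin IIA and is known for its link to cell motility and metastasis, S100P is known from many epithelial cancers, and S100A10 is held in a complex with annexin A2. Most human S100 genes lie in a cluster in band 1q21 of chromosome 1, while S100P lies apart on chromosome 4.

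In GENCODE 29 on GRCh38, S100A4 lies on the minus strand of chromosome 1 from 153543613 to 153550136. Its nearest measured neighbours were S100A6, whose lowest coordinate lies 9.01 kb from that of S100A4 on one side (153534599 to 153536244), and S100A2, at 17.5 kb on the other (153561108 to 153567890). S100A16 and S100A13 follow at 63.3 and 75.2 kb, and S100A10 and S100A11 lie 1560.7 and 1511.1 kb away in the same band. All 7 of these genes are on the minus strand. S100P lies on the plus strand of chromosome 4 from 6693069 to 6697170. The annotated S100A4 gene spans S100A3 on the same strand and S100A13 overlaps S100A1 on the opposite strand, and how reads in such stretches were assigned is not given in the sources used here.

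Promoter sequences of 300 bases (250 before and 50 after the start) were taken from RefSeq on GRCh38.p14 and matched all 10 genes, with 14 entries. They are shown for S100A4 and S100P, the members with the lowest OVCAR5R levels relative to OVCAR5, for S100A6 as the nearest measured neighbour, and for S100A10 as a member with near-equal levels in both cell lines. The capitals mark every CG dinucleotide and every TATAAA.
S100A4, chr1:153545757-153546056, minus strand: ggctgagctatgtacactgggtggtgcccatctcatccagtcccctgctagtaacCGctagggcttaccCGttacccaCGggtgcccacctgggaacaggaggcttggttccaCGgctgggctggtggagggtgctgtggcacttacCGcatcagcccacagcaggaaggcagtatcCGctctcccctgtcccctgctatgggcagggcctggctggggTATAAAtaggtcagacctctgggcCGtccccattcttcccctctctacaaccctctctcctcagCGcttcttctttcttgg
S100P, chr4:6693628-6693927, plus strand: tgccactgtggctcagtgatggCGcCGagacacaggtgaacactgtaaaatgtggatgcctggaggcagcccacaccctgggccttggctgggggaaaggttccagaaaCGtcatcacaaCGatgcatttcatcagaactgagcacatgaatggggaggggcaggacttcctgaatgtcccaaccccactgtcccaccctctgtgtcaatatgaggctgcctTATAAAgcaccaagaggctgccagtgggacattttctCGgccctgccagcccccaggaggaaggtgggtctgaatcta
S100A6, chr1:153535942-153536241, minus strand: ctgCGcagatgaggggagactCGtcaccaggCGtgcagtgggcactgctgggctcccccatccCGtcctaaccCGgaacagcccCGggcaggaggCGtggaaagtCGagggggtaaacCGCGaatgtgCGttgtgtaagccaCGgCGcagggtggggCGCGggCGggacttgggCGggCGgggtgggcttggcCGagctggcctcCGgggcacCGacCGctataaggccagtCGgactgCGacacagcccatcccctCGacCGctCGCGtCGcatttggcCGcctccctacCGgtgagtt
S100A10, chr1:151993810-151994109, minus strand: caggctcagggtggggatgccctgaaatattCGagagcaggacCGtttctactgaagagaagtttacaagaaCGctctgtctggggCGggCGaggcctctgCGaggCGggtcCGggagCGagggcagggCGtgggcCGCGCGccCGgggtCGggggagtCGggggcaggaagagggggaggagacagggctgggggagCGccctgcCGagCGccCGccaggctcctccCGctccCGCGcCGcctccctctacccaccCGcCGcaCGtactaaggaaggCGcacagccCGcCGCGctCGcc
The motif TATAAA, searched on both strands, was found in the windows of S100A4 and S100P, where its first base lies 31 and 28 bases before the start. It was also found in 1 of the 3 windows of S100A13, with its first base 29 bases before the start. At any place in the window, it was found in 11.6% of 34796 different promoter windows of the table. The S100A4 and S100P windows hold 8 and 5 CG dinucleotides, against 31 for S100A6, 32 for S100A10, and a median of 14 over all windows. Such low counts were not particular to them, with 3 and 8 in the windows of S100A16 and 5 and 4 in those of S100A2. The S100A3 and S100A14 windows hold 5 each, that of S100A11 holds 22, and those of S100A13 hold 19, 11, and 12. The motif TGANTCA was found in 1 of 2 windows of S100A2 and in that of S100A3, against 7.73% of all windows, and CACGTG in no window of the members, against 7.20%. These matches describe letters in the windows and are not measured binding sites.

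Values are given in linear units of the deposited normalized signal, whose total per library ranged from 937274 to 1038240. The smallest recurring value of each library was taken as 1 estimated read. This put the total over the listed genes between 35800000 and 55100000 estimated reads per library. Below, values of a cell line are listed in the order of replicates 1, 2, and 3, and fold changes are differences of OVCAR5R minus OVCAR5 on the log2(value + 1) scale. OVCAR5 replicate 2 stood apart, with a Pearson's r across genes of 0.898 and 0.883 with the other OVCAR5 libraries, which had an r of 0.955 with each other. The summed signal of the 8 measured of 9 epithelial markers was 17747 in that library, 2492 and 2400 in OVCAR5 replicates 1 and 3, and between 3611 and 4827 in OVCAR5R. EPCAM, an epithelial adhesion molecule, was at 597 in OVCAR5 replicate 2 and between 11.9 and 31.7 in the other 5 libraries. Of the ovarian and Müllerian markers, of which 3 of 7 were measured with sums between 8.70 and 17.5 in OVCAR5 and 5.05 and 7.50 in OVCAR5R, PAX8 was between 4.38 and 11.4 and WT1 between 0.0290 and 0.727. The 2 measured of 8 fibroblast markers summed to between 1.77 and 15.3 in OVCAR5 and 6.95 and 9.99 in OVCAR5R, and the 3 measured of 8 leukocyte markers to between 73.7 and 110.4 and between 103 and 149. None of the measured markers was at 0 in all libraries. Whether this culture was in the same state as the other OVCAR5 cultures was not tested. The fold changes of the S100 members and the medians of the gene lists are therefore also given without it.

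S100A4 was low in every OVCAR5R culture. The 3 OVCAR5 cultures gave a signal of 70.0, 258, and 134, while the 3 OVCAR5R cultures gave 5.54, 8.51, and 9.15. The lowest OVCAR5 library was thus still far above the highest OVCAR5R library, and the groups did not overlap. The OVCAR5 mean of 154 ± 95.7 was 19.9 times the OVCAR5R mean of 7.73 ± 1.92 (SD, n = 3 each). On the log2(value + 1) scale the difference was -3.98, and -3.51 without OVCAR5 replicate 2. The OVCAR5R values rest on 294, 470, and 491 estimated reads and the OVCAR5 values on 2872 to 8915, so S100A4 remained measurable in the resistant line. In bulk RNA, fewer cells that express a gene and less RNA per cell cannot be told apart.

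**Figure D1:**
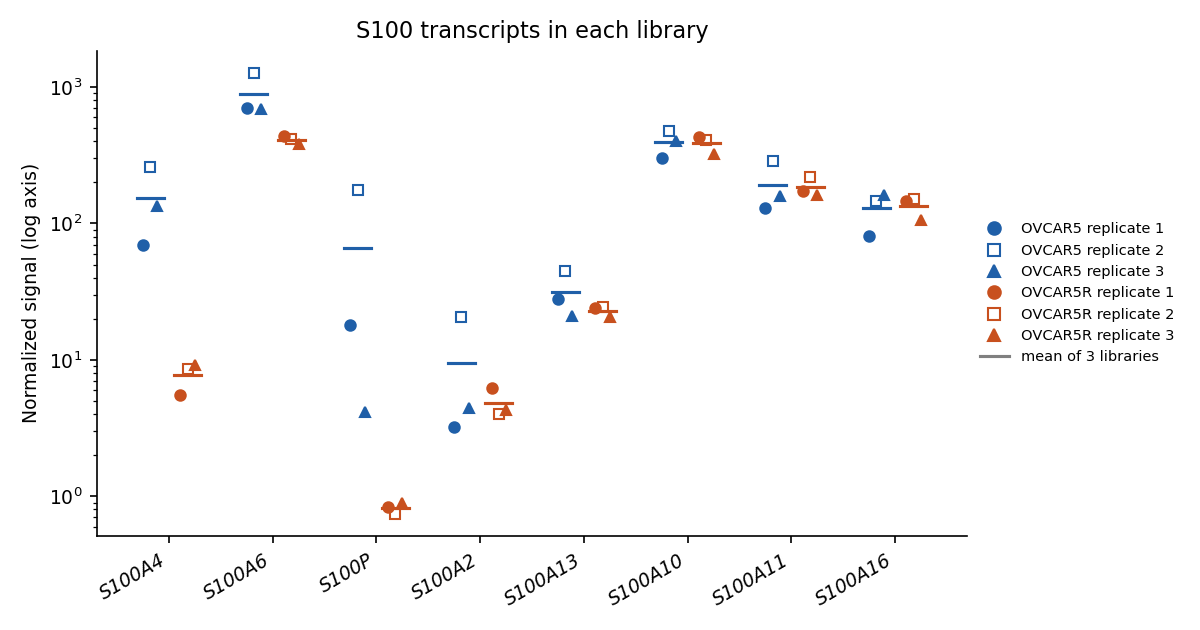
Normalized signal (log axis) of the 8 measured S100 genes in each library, with OVCAR5 in blue, OVCAR5R in orange, a marker shape per replicate number, and a bar at the mean of 3 libraries. S100A4, S100A6, and S100P show no overlap between the cell lines, and OVCAR5 replicate 2 (open blue square) is the highest library for 7 of the 8 genes.

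S100A6 (calcyclin), the nearest measured gene to S100A4, was lower in OVCAR5R in each library but by a much smaller amount, and it did not pass the test over all genes. Its signal measured 708, 1272, and 686 in the parental cultures against 437, 414, and 380 in the resistant ones. The OVCAR5R cultures were close together, and all lay below the OVCAR5 cultures. Means were 889 ± 332 for OVCAR5 against 410 ± 28.6 for OVCAR5R (SD, n = 3 each). The log2 fold change was -1.05 (standard error 0.28, 95% interval -1.69 to -0.42), and limma gave an adjusted p of 0.293 over all 11766 genes tested (0.184 to 0.573 over the alternative analyses). Within each library, the signal of S100A4 was 9.88%, 20.3%, and 19.5% of that of S100A6 in OVCAR5 and 1.27%, 2.05%, and 2.41% in OVCAR5R. The ratio between these genes was therefore also without overlap between the cell lines.

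S100P, on another chromosome, was the other member with a large difference, but its OVCAR5 cultures were far apart. Parental cultures stood at 18.05, 177, and 4.16, and resistant cultures at 0.829, 0.742, and 0.894. Replicate 2 thus supplied most of the OVCAR5 mean of 66.4 ± 96.0, while OVCAR5R averaged 0.822 ± 0.0765 (SD, n = 3 each). The OVCAR5R values rest on 41 to 48 estimated reads. The log2 fold change was -3.83 (standard error 1.08, 95% interval -6.32 to -1.34), and limma gave an adjusted p of 0.304 (0.121 to 0.575 over the alternative analyses). Without OVCAR5 replicate 2 the log2 fold change was -2.44. Since the OVCAR5R values were all under 1, S100P entered the test only through its OVCAR5 values. A gene that enters in this way had to differ without overlap, so its interval and adjusted p are a description only.

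The other 5 members overlapped between the cell lines. S100A10, the annexin A2 partner, was at 300.6, 479, and 406 in OVCAR5 and 432, 409.8, and 323 in OVCAR5R, a log2 fold change of -0.01 (95% interval -0.56 to 0.55). S100A11, a partner of annexin A1, was at 129, 288, and 158 in OVCAR5 and 172, 219, and 161 in OVCAR5R, a log2 fold change of 0.01 (95% interval -0.71 to 0.73). In both genes the OVCAR5R cultures fell within the range of the OVCAR5 cultures. S100A16 was at 81.6, 147, and 163 in OVCAR5 and 147, 152, and 107 in OVCAR5R, a log2 fold change of 0.10 (95% interval -0.59 to 0.78). S100A13, which takes part in the release of FGF1 from cells, was at 28.0, 44.9, and 20.8 in OVCAR5 and 24.0, 24.3, and 20.7 in OVCAR5R, a log2 fold change of -0.36 (95% interval -1.04 to 0.32). S100A2, the nearest measured gene on the side away from S100A6, was at 3.24, 20.7, and 4.43 in OVCAR5 and 6.22, 4.04, and 4.32 in OVCAR5R. For S100A2 a single OVCAR5 library, replicate 2, lay above the rest, the log2 fold change was -0.46 (95% interval -1.80 to 0.89), and without that library it was 0.27. The adjusted p-values of these 5 genes lay between 0.698 and 0.996 (limma). The lowest bound of their intervals was that of S100A2.

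**Figure D2:**
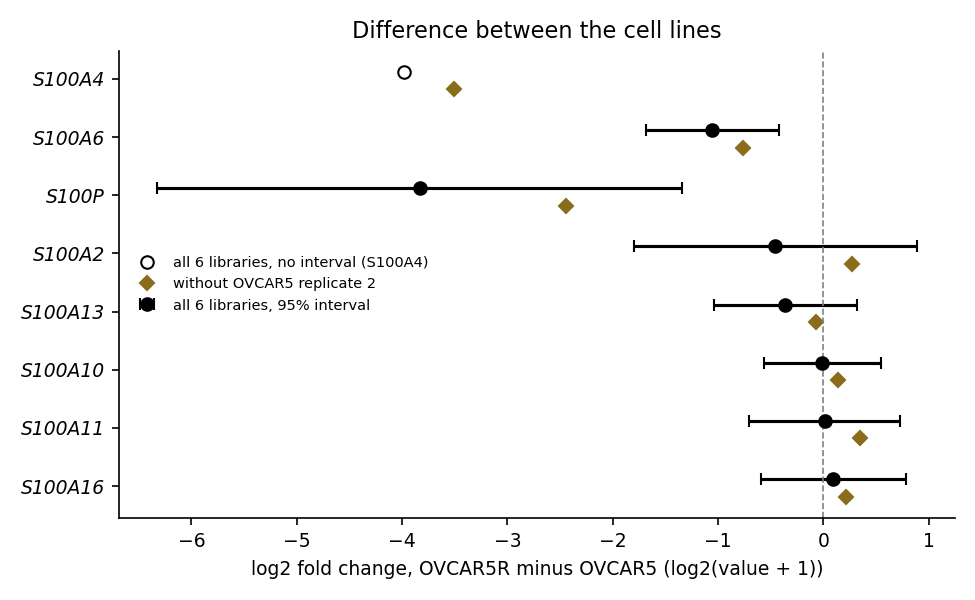
Difference between OVCAR5R and OVCAR5 (log2 fold change on the log2(value + 1) scale) for the 8 measured S100 genes. Filled circles carry the 95% interval from limma over 3 against 3 libraries, S100A4 (open circle) has none because it was selected on this contrast, and diamonds are values without OVCAR5 replicate 2. S100A4 lies at -3.98, S100P, which entered the test only through OVCAR5, at -3.83, and S100A6 at -1.05. The intervals of the other 5 genes include 0.

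Counted together, 0 of the 7 measured members other than S100A4 had an adjusted p under 0.05 with limma, against 0.119% of all genes tested. An unadjusted p under 0.05 was found for S100A6, and for 10.4% of all genes tested (6.25% lower in OVCAR5R). S100P also had one, but it is not counted, since the filter obliged it to differ. With limma's voom on the estimated reads, 0 of the 7 and 0 of all genes had an adjusted p under 0.05. Every OVCAR5R library was below every OVCAR5 library for 3 of the 8 members, S100A4 included, where this held for 8.18% of all genes tested. Nothing is read from that count, since S100A4 was chosen on this contrast and S100P entered only through OVCAR5. Every OVCAR5R library was above for 0 members, against 8.4% of all genes. The median log2 fold change of the 7 members was -0.36, against -0.01 over all genes tested, and it was 0.14 without OVCAR5 replicate 2. That median includes S100P, which the filter obliged to differ. For the 6 members on chromosome 1 other than S100A4 it was -0.18, and 0.18 without OVCAR5 replicate 2. OVCAR5 replicate 2 was the highest of the 6 libraries for 7 of the 8 members and for 26.9% of all genes tested. For S100P it was 15.9 times the mean of OVCAR5 replicates 1 and 3, for S100A2 5.40 times, and for S100A4 2.53 times.

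To compare levels between genes, the signal was divided by the length in kilobases of the GENCODE principal transcript. In OVCAR5 the order of these levels was S100A6 (1320 ± 493 per kb), S100A10 (329 ± 74.5), S100A11 (323 ± 142), S100A4 (257 ± 160), S100A16 (114 ± 37.5), S100P (51.9 ± 75.1), S100A13 (45.5 ± 18.1), and S100A2 (9.48 ± 9.78; SD, n = 3 each). The ranges over the 3 libraries were separate between S100A6 and the next gene and between S100A13 and S100A2, while those of the other neighbours in the order overlapped. In OVCAR5R the order was S100A6 (609.8 ± 42.5 per kb), S100A10 (323 ± 47.7), S100A11 (309 ± 51.6), S100A16 (118 ± 21.7), S100A13 (33.5 ± 2.88), S100A4 (12.9 ± 3.21), S100A2 (4.87 ± 1.19), and S100P (0.643 ± 0.0598; SD, n = 3 each). Here S100A10 and S100A11 overlapped, and each other neighbouring pair in the order was separated. By the means, S100A4 thus went from the fourth to the sixth place among the 8 genes, while S100A6 was the highest in both cell lines. The place of S100P in OVCAR5 rests on a mean that replicate 2 carried. Its OVCAR5 libraries gave 14.1, 138, and 3.25 per kb, and in replicate 3 it was already below S100A2 at 4.44. The values per kb take the principal transcript as the only one present.

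The tested genes around S100A4 on chromosome 1 were the 56 other genes with a start within 2 Mb. None of them had a difference of its size, but nothing is read from this, since S100A4 was selected on this contrast. Of all 11766 genes tested, 10 lay at or below its value, S100A4 included. The median log2 fold change of the 56 neighbours was 0.08, with quartiles of -0.09 and 0.25, against -0.01 over all genes tested. Of the 56, 36 were above and 20 below 0, and 0 had an adjusted p under 0.05 with limma, while 5 had an unadjusted p under 0.05, where 10.4% of all genes tested did. Without OVCAR5 replicate 2 the median was 0.22. MUC1 and S100A6 of the 56 lay below -1, as did 489 of all 11766 genes tested. MUC1, which encodes a mucin, had the lowest value of -1.75 (standard error 1.20), with 96.5 in OVCAR5 replicate 2 and between 0.942 and 5.01 in the other 5 libraries, and it was at -0.18 without OVCAR5 replicate 2. The highest was HRNR at 1.40 (standard error 0.51, adjusted p = 0.401, limma), the gene of hornerin, which belongs to the S100-fused family of the same band and did not exceed 12.4 in any library. The single neighbour below in every OVCAR5R library was S100A6, against 8.18% of all genes, and the 4 above, against 8.4% of all genes, included ILF2, IL6R, and SHC1, which are named here after their values were seen. IL6R, the interleukin-6 receptor gene at 861.6 kb from S100A4, was at 35.0, 17.2, and 31.9 in OVCAR5 and 55.9, 58.8, and 61.2 in OVCAR5R, a difference of 1.10 with an adjusted p of 0.293 (limma).

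**Figure D3:**
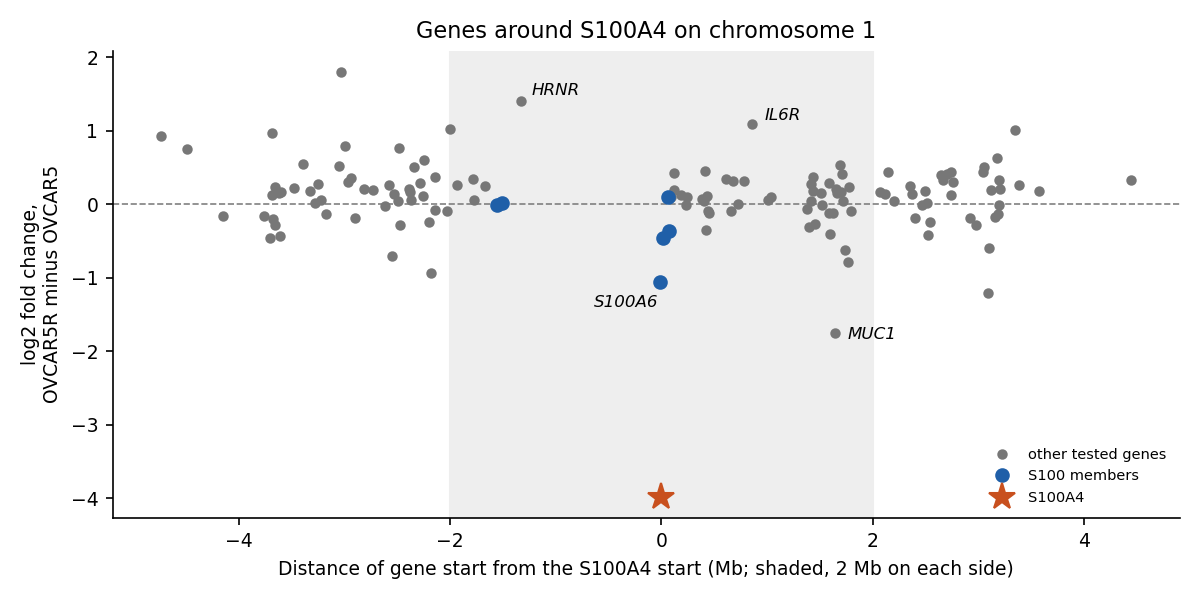
Log2 fold change (OVCAR5R minus OVCAR5) of each tested gene whose start lies within 5 Mb of the S100A4 start, by distance in Mb. S100A4 (star), which was selected on this contrast, lies at -3.98, below every other gene plotted. The S100 members (blue) lie between -1.05 and 0.10, and the genes within 2 Mb (shaded) have a median of 0.08.

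Nearest to S100A4, the 4 S100 members within 0.1 Mb had log2 fold changes of -1.05 (S100A6), -0.46 (S100A2), 0.10 (S100A16), and -0.36 (S100A13). Without OVCAR5 replicate 2 these were -0.76, 0.27, 0.21, and -0.07. S100A4 was also set against the median log2 level of the 56 neighbours within each library. It lay 0.68, 2.28, and 1.47 above that median in the OVCAR5 cultures, whereas the same quantity was -3.13, -2.45, and -2.49 in the OVCAR5R cultures. The neighbours' own median level was between 5.47 and 5.74 in OVCAR5 and between 5.70 and 5.84 in OVCAR5R on the log2(value + 1) scale. Medians were 0.10 for the 23 genes within 1 Mb and 0.14 for the 139 genes within 5 Mb.

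Annexins, which bind membranes in a calcium-dependent way, are the best known partners of the S100 proteins. Of 13 annexin genes, 10 were tested and 0 had an adjusted p under 0.05 with limma, while 4 had an unadjusted p under 0.05, all lower in OVCAR5R, against 6.25% of all genes tested. Every OVCAR5R library was below every OVCAR5 library for 5 of the 10 (ANXA1, ANXA3, ANXA4, ANXA5, and ANXA11), where 8.18% of all genes did so, and above for 0. Their median log2 fold change was -0.50, and -0.51 without OVCAR5 replicate 2, against -0.01 over all genes. ANXA1, the S100A11 partner, was at 606, 1052, and 516 in OVCAR5 and at 361, 366, and 243 in OVCAR5R. This was a difference of -1.12 ± 0.31 (SE) with a limma adjusted p of 0.304, and -0.81 without OVCAR5 replicate 2, while S100A11 itself differed by 0.01. ANXA2, which holds S100A10 in a heterotetramer, was at 3106, 4429, and 3397 in OVCAR5 and 3733, 3997, and 2765 in OVCAR5R, a log2 fold change of -0.06 (95% interval -0.67 to 0.55). Both partners of this complex thus overlapped between the cell lines. ANXA4 was the lowest of the list at -1.47 ± 0.68 (SE, limma adjusted p = 0.500), with 42.7, 239, and 29.4 in OVCAR5 and 18.6, 28.0, and 25.4 in OVCAR5R, and it was at -0.57 without OVCAR5 replicate 2. ANXA8 was the highest at 0.62 (standard error 0.86), and at 1.73 without OVCAR5 replicate 2, and reads may have been split between it and its near-identical copy ANXA8L1, so both values are uncertain.

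**Figure D4:**
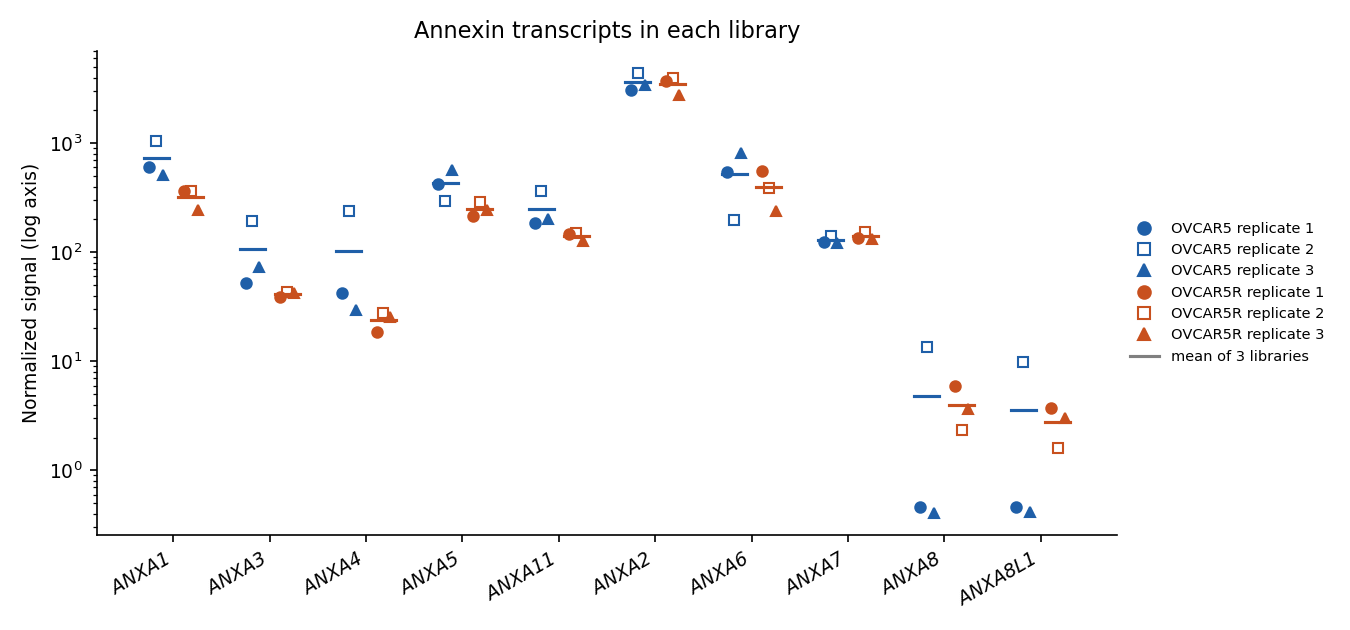
Normalized signal (log axis) of the 10 tested annexin genes in each library, with OVCAR5 in blue, OVCAR5R in orange, a marker shape per replicate number, and a bar at the mean of 3 libraries. ANXA1, ANXA3, ANXA4, ANXA5, and ANXA11 show no overlap between the cell lines, and ANXA2 is the highest annexin in each library.

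Of 20 intracellular binding partners of S100 proteins, 19 were tested and 0 had an adjusted p under 0.05 with limma, while 2 had an unadjusted p under 0.05, a share close to the 10.4% of all genes. MYH9, the heavy chain of the non-muscle myosin IIA that S100A4 binds, was at 1519, 1034, and 1538 in OVCAR5 and 890, 683, and 1002 in OVCAR5R. All OVCAR5R cultures were below all OVCAR5 cultures, by -0.66 ± 0.26 (SE, limma adjusted p = 0.432). The highest of the list was TPM1, a tropomyosin gene, at 123.2, 55.1, and 136 in OVCAR5 and 301, 240, and 262 in OVCAR5R. It differed by 1.44 ± 0.34 (SE, limma adjusted p = 0.244), and by 1.04 without OVCAR5 replicate 2. The lowest was EZR, the gene of ezrin, which S100P binds, at -0.91 (standard error 0.45, adjusted p = 0.525, limma). Without OVCAR5 replicate 2, EZR was at -0.60 and MYH9, at -0.85, was the lowest. The median of the 19 genes was 0.05, and -0.03 without OVCAR5 replicate 2, against -0.01 over all genes.

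The extracellular side was covered by a list of 13 receptors and genes of the plasminogen system, to which S100A10 belongs at the cell surface. Of these, 9 were tested and 0 had an adjusted p under 0.05 with limma. Apart from SERPINB2, which the filter obliged to differ, 1 had an unadjusted p under 0.05, where 10.4% of all genes tested did. The median of the 9, SERPINB2 included, was 0.04, and -0.07 without OVCAR5 replicate 2. SERPINB2, the gene of the plasminogen activator inhibitor PAI-2, was listed at 0 in OVCAR5 replicates 1 and 2 and at 0.0507 in replicate 3, against 2.00, 3.37, and 1.51 in OVCAR5R, and it entered the test only through OVCAR5R. The lowest was PLAT, the gene of tissue plasminogen activator, at -0.84 (standard error 0.64, adjusted p = 0.676, limma), and at -0.54 without OVCAR5 replicate 2. TLR4, a receptor for several S100 proteins, was at 12.5 ± 4.84 in OVCAR5 and 12.7 ± 0.337 in the resistant line (SD, n = 3 each), and BSG, a receptor of S100A9, was at 607 ± 117 and 540 ± 30.5.

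The 5 genes whose pattern over the 6 libraries was most like that of S100A4 were taken by Pearson's r on the log2(value + 1) scale. They were CD74 (r = 0.998), FAM109B (r = 0.995), SLC37A2 (r = 0.992), GRAMD4 (r = 0.991), and MT-ND6 (r = 0.988). FAM109B, at 0.189, 0.344, and 0.168 in OVCAR5R, entered the tested genes only through OVCAR5, so it had to differ without overlap. None of the 4 that could be placed lies near S100A4, since they are on chromosomes 5, 11, and 22 and on the mitochondrial genome. SLC37A2, a sugar phosphate transporter gene, was at 39.4, 83.8, and 60.5 in OVCAR5 and 5.30, 10.5, and 7.70 in OVCAR5R. MT-ND6, a mitochondrial subunit of respiratory complex I, was at 466, 653, and 466 in OVCAR5 and 135, 177, and 192 in OVCAR5R. Among the S100 members the r with S100A4 was 0.936 for S100A6, 0.859 for S100P, and between 0.02 and 0.60 for the other 5. By r, S100A6 held rank 82 and S100P rank 352 among all other genes tested, and S100P had entered only through OVCAR5. The points are 6 libraries in 2 cell lines, which share their normalization, and the r values are a description only.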

How the data were processed

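OVCAR5 and OVCAR5R, with 3 cultures each, were profiled by RNA-seq. The authors deposited a table of normalized signal per gene and culture. The supplementary methods state quartile normalization and log transformation before analysis, and do not say which step the deposited table stands at. Its values are linear and not per length. The submitters' processing notes name the build hg38, and the aligner, counter, annotation, and strandedness are not given in the sources used here. A row present in identical copies was kept once (12309 to 12308 rows). The smallest recurring value of a library was taken as 1 estimated read. Whole multiples of it (within 0.004 reads) made up 61.7% to 65.8% of values, and the others held fractions of it. The main analysis therefore used no test for counts, and voom on the estimated reads served only as an alternative. Each OVCAR5R library had more estimated reads (50300000 to 55100000) than each OVCAR5 library (35800000 to 41300000).

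Genes were kept when 3 or more of the 6 libraries reached a value of 1, and were tested on log2(value + 1), a scale that understates changes of low genes, with limma version 3.58.1 in R version 4.3.3 (trend, no covariates), adjusted by the Benjamini-Hochberg method over 11766 genes. All 8 measured members passed the filter. Positions were matched by symbol in GENCODE release 29 (GRCh38) for 12234 of 12305 symbols. Figures used matplotlib version 3.10.9 in Python version 3.11.15.

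The members and lists were chosen with earlier results of these data known. Named genes were all members, the called or else the highest and lowest genes of each list, the nearest and the highest and lowest neighbours of S100A4, and the 5 genes with the highest r; partners such as ANXA1, ANXA2, MYH9, TLR4, BSG, and SERPINB2 were named beside them for their role. A few genes that this rule would name are not reported here. Alternatives were quantile normalization, limma without trend, a pseudocount of 0.1, no filter, a minimum value of 5, voom on estimated reads, the replicate number as a block, other windows, and each library left out. The sources used here do not say whether equal replicate numbers pair the cultures, and the main analysis did not pair them.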

Additional observations from a re-analysis of the deposited data

How the results depend on the processing

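Over 13 alternatives, the log2 fold change of S100A4 lay between -4.45 and -3.51 and that of S100A6 between -1.21 and -0.76. That of S100P lay between -5.00 and -2.44 (12 alternatives). Limma without trend, the other filters, and the replicate block cannot change a log2 fold change in this balanced design, so they do not check it. S100P and S100A2 could not be fitted at a minimum value of 5. The count of the 7 other members with an adjusted p under 0.05 was 0 under each alternative, and S100A4 relative to its neighbours stayed between -4.57 and -3.77 (10 alternatives). The number of all genes with an adjusted p under 0.05 was 14, 0 with voom, 5 with the replicate block, and between 0 and 29 with a library left out (3, 29, and 10 without OVCAR5 replicates 1, 2, and 3, and 4, 2, and 0 without OVCAR5R replicates 1, 2, and 3). The 29 included all 14. The correlation of deviations between same-numbered cultures was -0.00, 0.18, and -0.12, within the range of -0.19 to 0.25 for cultures with different numbers. Whether same-numbered cultures were prepared together cannot be told from these values. At a minimum value of 5, without S100P and S100A2, the median of the other members was -0.01 in place of -0.36. With a library left out, the median of the 7 members lay between -0.61 and 0.14 and that of the 56 neighbours between 0.011 and 0.22, the highest of both without OVCAR5 replicate 2. Members near 0 turned sign: S100A10 was at 0.025 with quantile normalization and between -0.19 and 0.14 with a library left out, S100A11 between -0.23 and 0.35, S100A16 between -0.21 and 0.29, and S100A2 between -0.91 and 0.27. The cause of these shifts was not tested. Precision is limited by 3 cultures per line, with a median SD between cultures of 0.34 (OVCAR5) and 0.25 (OVCAR5R) on the log2 scale, and by depth for S100P in OVCAR5R.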

Other observations

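Of 11 other EF-hand calcium sensors, all tested, 10 were below 0 and 1 above, with a median log2 fold change of -0.30 against -0.01 over all genes, and -0.15 without OVCAR5 replicate 2. With limma, 0 had an adjusted p under 0.05 and 1 an unadjusted p under 0.05, against 10.4% of all genes. That gene, CALML4, a calmodulin-like gene, was at 7.93, 19.1, and 9.53 in OVCAR5 and 3.24, 5.76, and 4.35 in OVCAR5R, without overlap (log2 fold change -1.21, standard error 0.37, adjusted p = 0.326, limma; -0.86 without OVCAR5 replicate 2). The calmodulin genes CALM2 and CALM3 had log2 fold changes of -0.07 and 0.09, the latter the highest of the list, and both overlapped between the cell lines.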
